A study of Homo sapiens with 59 samples.

Results

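The comparison described here sets the third day of exposure to CHIR99021 against the second at the same hours of the day. CHIR99021 is a small molecule that inhibits the kinase GSK3 and so activates WNT signalling through beta-catenin. The libraries were chosen by their labelled exposure alone: 9 libraries of 60, 66 and 72 h against 8 libraries of 36, 42 and 48 h, 17 of the 59 libraries in the series. Each time was compared with the time 24 h before it. All cells were neural stem cells derived from the human embryonic stem cell line WA09 (H9), which is established, and the labels name no genetic change. All received FGF8b at 200 ng per mL first, then CHIR99021 for the stated number of hours, and then retinoic acid for 4 days before RNA was taken. The values therefore describe cells that differed in the length of the CHIR99021 step and had all been through the same retinoic acid step. Replicates are labelled A1, A2 and B1. The 48 h group has 2 libraries, because its B1 library was filtered out by the submitters over its number of genes with zero counts.

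A few features of the design bear on every value below. The protocol started CHIR99021 on day 2 and renewed that medium on day 4, so by these day numbers cultures of 60 to 72 h had received the renewal and cultures of 36 and 42 h had not. No clock times are given in the labels. Length of exposure, medium renewal and total time in culture cannot be told apart, and libraries of cells given no CHIR99021 were not analysed here. Nothing in the labels says whether replicates came from separate cultures. The p-values rest on the spread between libraries of one time point, estimated over all 59 libraries of the series, and that spread may be technical. These are bulk samples, in which fewer cells of a type and less RNA per cell cannot be told apart.

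HOX genes encode transcription factors that give cells of the hindbrain and spinal cord their position along the head-to-tail axis. They lie in 4 clusters, and low-numbered genes are used toward the head and high-numbered genes toward the tail. In the embryo, WNT and FGF signals in the tail bud open the high-numbered genes, in part through the caudal factors of the CDX family, while retinoic acid made by neighbouring tissue favours low-numbered genes and neuronal differentiation. An inhibitor of GSK3 followed by retinoic acid is used in culture to move neural cells along this axis.

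The values are TPM (transcripts relative to a fixed total), a level per transcript length in which each library sums to one fixed total, so the sequencing depth behind a value is unknown. The 42 h B1 library had 9924 genes at 1 TPM or more and the 72 h A2 library had 9348, while the other 15 had between 11561 and 12745. The median correlation of each of those libraries with the other 16 was 0.713 and 0.747, against 0.893 to 0.926 for the rest. Values without both are given for the named genes whose call changed or whose called difference moved by over 1.5 times, and list counts without both stand with the effects of the processing. The neural markers SOX1, SOX2, SOX3, PAX6, NES and VIM were above 0 in all 17 libraries. SOX2, a neural stem cell factor, ranged from 72.1 to 229 TPM, whereas SOX1 reached no more than 35.3 TPM and was as low as 1.09 TPM.

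All differences were taken as log2(TPM + 1), a scale that makes the changes of weakly expressed genes look smaller, and are positive where the third day was higher. Of 15305 genes tested, 785 passed an adjusted p of 0.05 (5.13%), of which 394 were higher on the third day (2.57%) and 391 lower (2.55%). The shares of 2.57% and 2.55% are the ones to set beside the counts of each gene list below. The median difference of all genes was -0.01. A difference of at least 1 was found for 173 of the higher genes (1.13%) and 217 of the lower (1.42%). The libraries of both days did not overlap at all for 81 genes (0.529%), 53 higher (0.346%) and 28 lower (0.183%). Without the 42 h B1 and 72 h A2 libraries 869 genes passed, 579 of them among the 785. Without the 48 h A2 library alone 518 passed. A fit on the 17 libraries alone called 195 genes.

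Among the HOX genes of groups 5 to 9, which mark the neck and chest levels of the spinal cord, 11 of 15 passed the filter on low values. Of these, 6 were at 1 TPM or more in at least 3 libraries of each day. Among the 6, 4 passed as higher on the third day (2.57% of all genes tested) and 1 as lower (2.55%). Libraries of the 2 days did not overlap for 4 (0.529% of all genes tested). The other 5 were at 0 in at least 7 of the 8 second-day libraries. Genes that enter a test only through the day on which they are high had to differ, so their calls are not counted here.

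HOXB9, the highest-numbered HOX gene with a mean of at least 2 TPM on a day, ranged from 4.16 to 66.2 TPM on the second day, with a median of 27.6, and from 262 to 575 TPM on the third day, with a median of 397. The lowest third-day library was above the highest second-day library. HOXB9 rose by 3.92 ± 0.26 (SE; adjusted p = 1.44e-15), and the difference was 4.80 between 60 and 36 h, 3.47 between 66 and 42 h and 3.51 between 72 and 48 h. On the second day the 36 h libraries were the low ones, at 14.7, 4.16 and 19.1 TPM, and the 48 h libraries were at 35.5 and 42.7 TPM.

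HOXB8 was at 24.9 to 138 TPM (median 87.1) on the second day and at 152 to 250 TPM (median 200) on the third day, again without overlap, and rose by 1.46 ± 0.22 (adjusted p = 1.01e-05). HOXA5 was at 2.71 to 58.3 TPM (median 32.2) and then 75.6 to 158 TPM (median 125), and rose by 2.09 ± 0.48 (adjusted p = 0.00465). HOXB7 ranged from 0 to 19.1 TPM and then from 5.47 to 53.8 TPM, so that its libraries overlapped. Its difference of 1.58 ± 0.44 (adjusted p = 0.0249) missed the threshold when any of 6 libraries was left out: 36 h B1 (1.29, adjusted p = 0.0828), 42 h B1 (1.22, 0.0847), 48 h A2 (1.50, 0.0862), 60 h B1 (1.47, 0.0575), 66 h A1 (1.49, 0.0524) or 72 h A2 (1.33, 0.0614). Without 42 h B1 and 72 h A2 together it was 0.97 (adjusted p = 0.183).

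The HOXC cluster supplied genes that were all but undetected on the second day. HOXC5 was listed at 0 in 7 of 8 second-day libraries, with 1.67 TPM in 42 h A1, and was above 0 in 8 of 9 third-day libraries, at up to 40.2 TPM with a median of 12.2 TPM. Its difference was 3.16 ± 0.35, and no test is given because it was near 0 on the second day. The only third-day library at 0 was 72 h A2. HOXC6 was listed at 0 in every second-day library and was at 12.9, 5.00 and 11.5 TPM at 60 h, 8.24, 4.81 and 11.8 TPM at 66 h, and 3.13, 0 and 0 TPM at 72 h. HOXA7 and HOXA6, also listed at 0 throughout the second day, were above 0 in 5 and in 3 of 9 third-day libraries, at up to 9.29 and 9.45 TPM. No fold or test is given for these 3 genes. The 12 HOX genes of groups 10 to 13 that were examined were listed at 0 in all 17 libraries.

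HOXB5 went the other way from its group. It was at 79.9 to 135 TPM (median 115) on the second day and at 0 to 44.8 TPM (median 28.8) on the third day, with no overlap. The value of 0 belongs to 72 h A2, and the other 8 third-day libraries were between 18.1 and 44.8 TPM. HOXB5 fell by 2.45 ± 0.51 on the log2 scale (adjusted p = 0.00124), and by 1.88 (adjusted p = 0.00431) without the 2 libraries with few detected genes. HOXB6, its neighbour in the cluster, had medians of 10.2 TPM and 15.2 TPM and a difference of 0.08 ± 0.48 (adjusted p = 0.970).

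Among the HOX genes of groups 1 to 4, used in the hindbrain and upper neck, 1 of 12 passed as higher on the third day and 5 as lower, with a median difference of -0.35. Without the 2 libraries with few detected genes the counts were 0 and 4. HOXD4 was at 130 to 272 TPM (median 190) on the second day and 42.3 to 150 TPM (median 63.4) on the third day, and fell by 1.43 ± 0.20 on the log2 scale (adjusted p = 2.19e-06). The libraries overlapped through 72 h A2 alone, at 150 TPM, since the other 8 third-day libraries were at 92.3 TPM or below. HOXB4 was at 61.9 to 337 TPM (median 124) and then 21.2 to 85.7 TPM (median 46.9), a fall of 1.36 ± 0.24 (adjusted p = 0.000145) with overlap at 48 h A1. HOXB3 fell by 0.91 ± 0.19 (adjusted p = 0.00138) from a median of 118 to 61.3 TPM, and HOXD3 by 0.92 ± 0.19 (adjusted p = 0.000842) from a median of 160 to 81.9 TPM.

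A further call in these groups rested on single libraries. HOXA3 had medians of 70.8 and 34.9 TPM and a difference of -0.86 ± 0.25 (adjusted p = 0.0312). Its adjusted p was between 0.0502 and 0.186 when 36 h A1, 36 h B1, 42 h B1, 48 h A2, 60 h A1, 66 h B1 or 72 h A1 was left out, and 0.0527 (difference -0.77) without 42 h B1 and 72 h A2 together.

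Several low-numbered genes did not pass. HOXB1 had medians of 128 and 156 TPM with a difference of 0.01 ± 0.45, and HOXB2 had medians of 87.8 and 87.4 TPM with a difference of -0.06 ± 0.23. HOXA2 (-0.36 ± 0.52), HOXA4 (-0.17 ± 0.51), HOXC4 (-0.34 ± 0.31) and HOXD1 (-0.35 ± 0.57) did not pass either, and their standard errors leave room for changes of either sign. None of 9 genes of the PBX, MEIS and related cofactor families, whose proteins bind DNA together with HOX proteins, passed the limma test, and 1 had an unadjusted p under 0.05 (18.5% of all genes did).

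**Figure D1:**
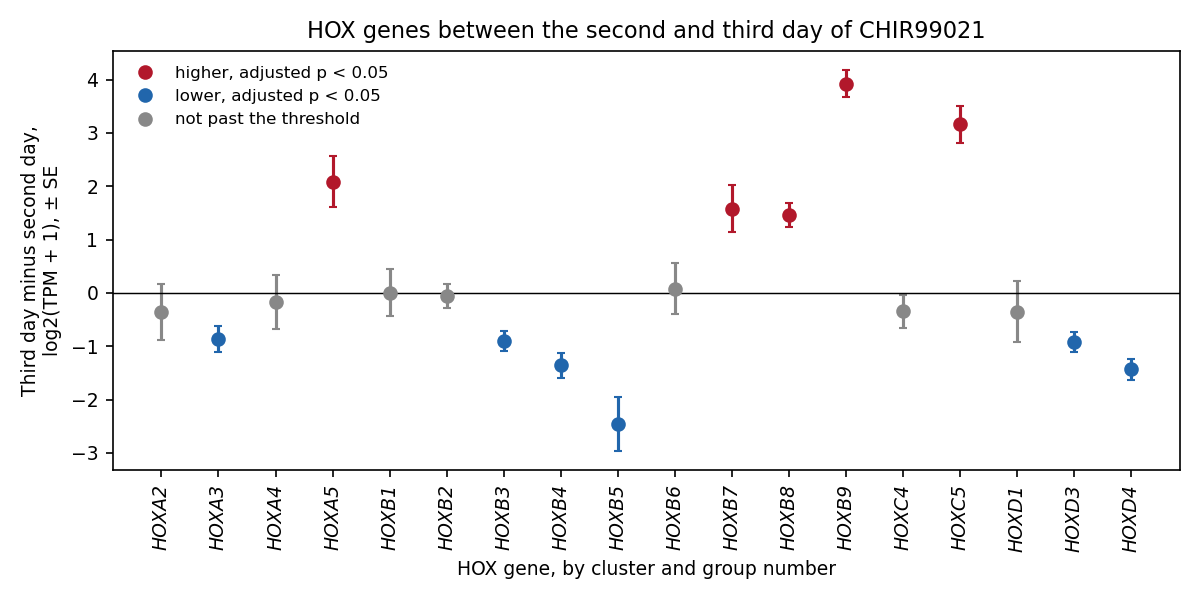
Difference of the third day from the second for the HOX genes of groups 1 to 9 reported here, with a mean of at least 2 TPM on 1 of the days and detected on the second day, on the log2(TPM + 1) scale, with standard errors. HOXA5, HOXB7, HOXB8, HOXB9 and HOXC5 lie above 0 in red, HOXB5 stands at -2.45 among its neighbours, and HOXB3, HOXB4, HOXD3 and HOXD4 lie below 0 in blue. The colour of HOXC5, which was near 0 on the second day, is not to be read as a test result.

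**Figure D2:**
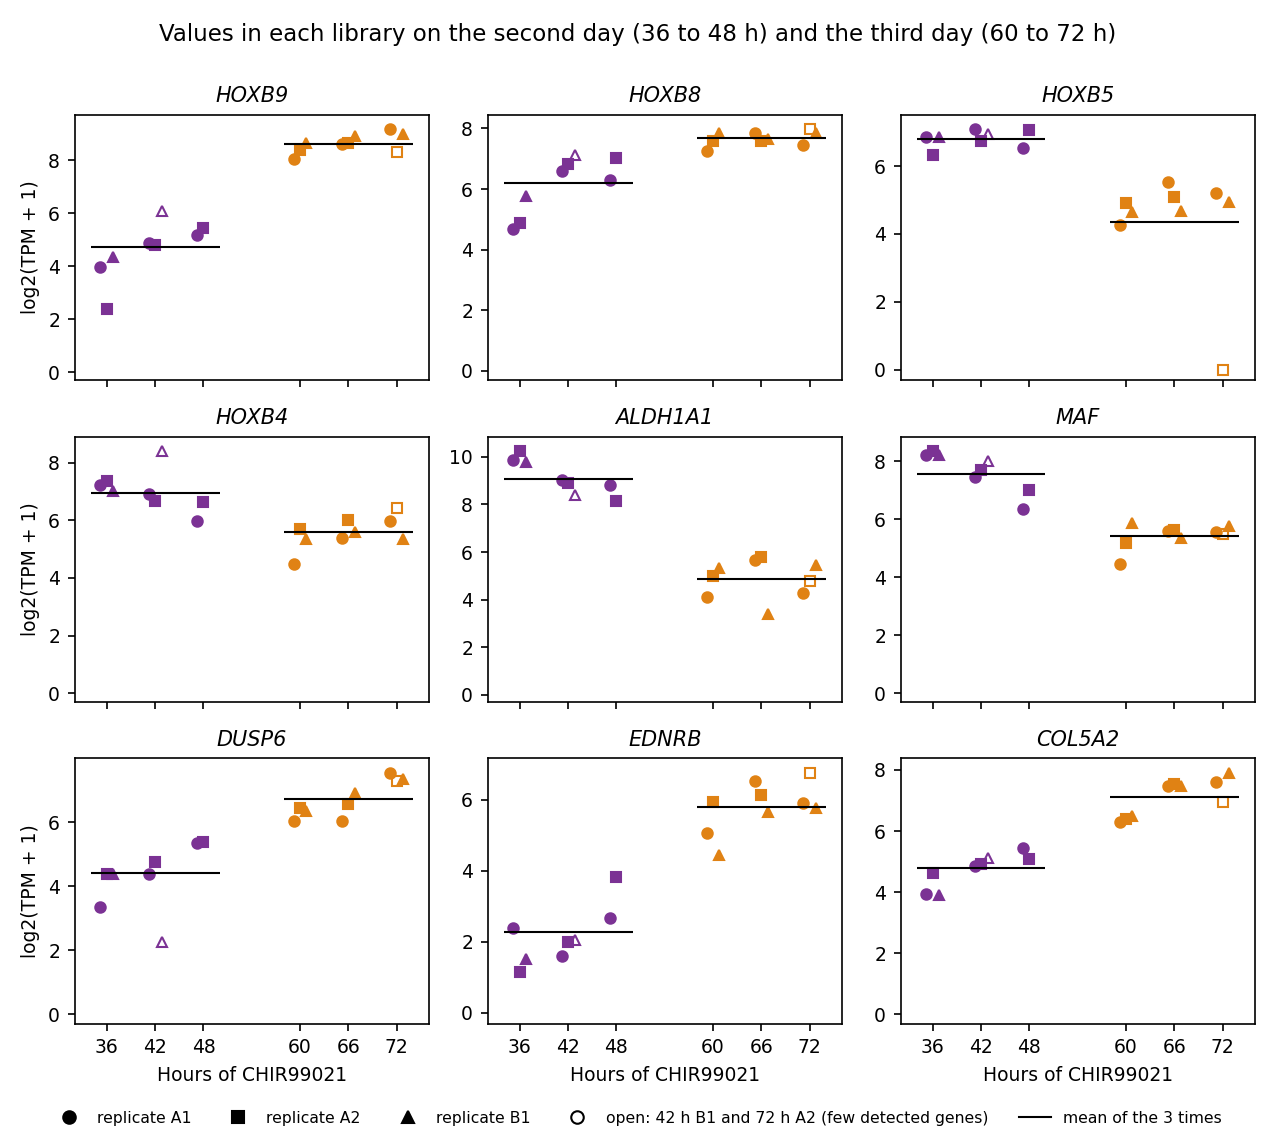
Level of 9 genes in each of the 17 libraries, as log2(TPM + 1), against hours of CHIR99021, with symbols for replicates, open symbols for the 2 libraries with few detected genes and a line at the mean of the 3 times. HOXB9, HOXB8, DUSP6, EDNRB and COL5A2 have every third-day library above every second-day library, and ALDH1A1, MAF and HOXB5 have every one below, while HOXB4 overlaps.

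Of 14 tested genes of the tail bud and of neuromesodermal progenitors, the cells that feed the lengthening spinal cord, 3 passed as higher and 1 as lower. The higher ones, CDX2, NKX1-2 and SP5, were at 1 TPM or more in fewer than 3 second-day libraries, and of the 8 members above that level on both days none passed as higher by limma. CDX2, a caudal factor that activates HOX genes, was listed at 0 in 5 of 8 second-day libraries, reached 5.97 TPM in 48 h A2 and was at 3.10 to 20.0 TPM (median 6.10) on the third day. Its difference was 2.40 ± 0.27, with overlap through 48 h A2 alone. NKX1-2, a tail bud factor, was above 0 in 1 of 8 and then in 6 of 9 libraries, at up to 27.1 TPM (difference 1.84 ± 0.42). No p-value is given for CDX2, NKX1-2 or SP5, because they were so little detected on the second day. The gene T, which encodes brachyury, was listed at 0 in all 17 libraries, as were CDX4, FGF17 and MSGN1.

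SP5, a transcription factor induced by beta-catenin in many cell types, was above 0 in 2 second-day libraries, at 1.28 and 0.86 TPM, and in 8 of 9 third-day libraries, at up to 21.0 TPM with a median of 6.49 TPM. Its difference was 2.31 ± 0.38, and 72 h A2 was again the library at 0. Of 19 WNT target genes tested, 6 passed as higher and 1 as lower, or 4 and 1 of the 14 at 1 TPM or more in at least 3 libraries of each day. APCDD1, a WNT inhibitor at the cell membrane, rose by 2.45 ± 0.47 (adjusted p = 0.000445) from a median of 7.62 to 34.2 TPM and was highest at 60 h, at 56.6, 72.6 and 88.4 TPM. NKD1, another inhibitor of the pathway, rose by 1.41 ± 0.32 (adjusted p = 0.00359) from a median of 3.85 to 11.1 TPM. CCND1 and MYC, targets shared with growth factor pathways, did not pass, with differences of 0.19 ± 0.13 and 0.32 ± 0.23.

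In the other direction within this pathway, FZD5, a receptor for WNT proteins, was at 12.9 to 35.3 TPM (median 26.3) on the second day and at 0 to 6.14 TPM (median 3.14) on the third day, with no overlap, and fell by 2.82 ± 0.18 on the log2 scale (adjusted p = 1.01e-15). SFRP5, a secreted protein that binds WNTs, fell by 3.34 ± 0.30 (adjusted p = 2.55e-11) from 16.7 to 32.0 TPM on the second day to 0 to 12.5 TPM on the third day, also without overlap.

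The promoter of SP5 is printed because this gene was nearly silent on the second day and belongs to the WNT pathway that CHIR99021 activates. The sequence is from RefSeq on build GRCh38.p14, 250 bases before to 50 after the start, at chr2:170715087-170715386 on the plus strand. Capitals mark the matches to CTTTGAA or CTTTGAT, forms of the site bound by the TCF and LEF partners of beta-catenin, searched on both strands.
SP5: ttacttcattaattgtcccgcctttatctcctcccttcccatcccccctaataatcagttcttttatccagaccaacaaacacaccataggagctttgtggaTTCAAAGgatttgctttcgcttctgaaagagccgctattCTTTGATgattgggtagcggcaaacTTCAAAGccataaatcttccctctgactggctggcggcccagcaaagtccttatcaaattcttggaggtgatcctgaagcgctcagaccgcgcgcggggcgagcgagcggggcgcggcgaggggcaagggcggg
The window holds 3 matches, beginning 148, 109 and 84 bases before the start. One match or more was found in 6.86% of the 35116 promoters of the same length, and 3 or more in 0.0256%. These motifs were chosen after the values of SP5 had been seen, and a match is a description of letters, not of binding.

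Retinoic acid is made by aldehyde dehydrogenases such as ALDH1A1, carried by the CRABP proteins, and broken down by CYP26A1, which is itself a classic retinoic acid target. Of 19 tested genes of this pathway, none passed as higher and 3 passed as lower, with a median difference of -0.10. ALDH1A1 was at 280 to 1207 TPM (median 496) on the second day and at 9.64 to 54.1 TPM (median 30.3) on the third day. No library overlapped, and the fall of 4.21 ± 0.20 on the log2 scale (adjusted p = 3.14e-20) was larger than that of any other gene named here except CALB1. It was 5.15 between 60 and 36 h, 3.82 between 66 and 42 h and 3.65 between 72 and 48 h.

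CYP26A1 stayed abundant, at 281 to 635 TPM (median 403) on the second day and 98.8 to 458 TPM (median 288) on the third day, and fell by 0.65 ± 0.10 (adjusted p = 3.22e-05). Its libraries overlapped widely, because it also differed between hours of one day: the 36 h libraries were at 596, 598 and 635 TPM and the 48 h libraries at 281 and 284 TPM. CRABP1, a carrier of retinoic acid in the cytoplasm, had medians of 263 and 188 TPM and a difference of -0.62 ± 0.16 (adjusted p = 0.0150). Without 48 h A1 it was -0.42 (adjusted p = 0.168), and without 36 h A2 it was -0.54 (adjusted p = 0.0503). CRABP2, the carrier that delivers retinoic acid to its receptors, had medians of 1798 and 1678 TPM and a difference of -0.17 ± 0.11.

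The promoters of ALDH1A1 and CYP26A1 are shown because these retinoid enzymes fell by such different amounts. Both are from RefSeq on build GRCh38.p14, 250 bases before to 50 after the start, read 5′ to 3′ on the strand of the gene. They were searched on both strands for direct repeats of AGGTCA or AGTTCA, in any of the 4 combinations, separated by NN or NNNNN, the layouts bound by retinoic acid receptors. Capitals mark the only match, which lies in the window of the CYP26A1 start at chr10:93073643-93073942, plus strand. The window of another CYP26A1 start, at chr10:93073225-93073524, was searched too, held no match and is not printed. ALDH1A1 is at chr9:72953004-72953303, minus strand.
CYP26A1: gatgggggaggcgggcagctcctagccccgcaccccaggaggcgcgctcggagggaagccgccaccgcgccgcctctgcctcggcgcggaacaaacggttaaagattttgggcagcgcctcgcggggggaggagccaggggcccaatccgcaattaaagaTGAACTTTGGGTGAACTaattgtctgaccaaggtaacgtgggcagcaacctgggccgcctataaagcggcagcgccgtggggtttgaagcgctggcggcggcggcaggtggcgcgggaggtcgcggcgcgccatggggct
ALDH1A1: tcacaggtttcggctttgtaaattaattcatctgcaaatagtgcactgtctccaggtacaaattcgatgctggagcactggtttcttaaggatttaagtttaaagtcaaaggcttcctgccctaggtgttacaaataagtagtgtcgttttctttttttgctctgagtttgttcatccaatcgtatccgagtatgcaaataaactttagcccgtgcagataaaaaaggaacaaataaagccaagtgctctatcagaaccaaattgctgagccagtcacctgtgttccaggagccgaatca
The match in CYP26A1 is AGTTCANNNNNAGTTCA on the minus strand, 90 to 74 bases before the start, a pattern found in 0.0114% of the 35116 promoters. Any of the 8 repeats was found in 0.0256%. That ALDH1A1 has none says only that these letters are not in this window.

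FGF signals act through the MAPK pathway, whose activity is read from feedback inhibitors and ETS factors that it induces. Of 18 such genes tested, 7 passed as higher on the third day and 1 as lower, or 5 and 1 of the 16 at 1 TPM or more in at least 3 libraries of each day. DUSP6, a phosphatase that switches ERK off, was at 3.76 to 40.9 TPM (median 19.9) on the second day and at 64.0 to 185 TPM (median 93.3) on the third day. It rose by 2.32 ± 0.26 (adjusted p = 1.23e-08) with no overlap between days. Within each day the latest libraries were the highest: those of 48 h were at 39.9 and 40.9 TPM, and those of 72 h at 185, 155 and 163 TPM.

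EGR1, an immediate early factor downstream of ERK, rose by 2.18 ± 0.51 (adjusted p = 0.00555) from a median of 5.89 to 29.3 TPM. ETV1, an ETS factor of the FGF response, rose by 1.30 ± 0.27 (adjusted p = 0.0013) from a median of 1.78 to 6.40 TPM. IL17RD, a membrane inhibitor of FGF signalling, rose by 1.57 ± 0.37 (adjusted p = 0.00588) from a median of 1.50 to 6.83 TPM. The receptors FGFR1 and FGFR2 had medians of 238 and 276 TPM and of 249 and 262 TPM, with differences of 0.09 ± 0.14 and -0.03 ± 0.12, neither of which passed. In the fit that treats each day as 1 group, 3 genes of this list passed as higher and none as lower.

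Genes of the dorsal neural tube and roof plate gave 3 higher and 2 lower of 21 tested, with a median difference of 0.29. LMX1A, the factor that specifies the roof plate, was at 0 to 13.2 TPM (median 4.67) on the second day and 16.1 to 65.3 TPM (median 32.6) on the third day, a rise of 2.90 ± 0.47 (adjusted p = 3.38e-05) with no overlap. OLIG3, a factor of dorsal progenitors, rose by 2.16 ± 0.40 (adjusted p = 0.000335) from a median of 9.38 to 19.1 TPM with wide overlap, since on both days the earliest time held the highest library: 19.7, 5.43 and 50.4 TPM at 36 h and 68.4, 52.5 and 124 TPM at 60 h. DBX2, a factor of intermediate progenitors, fell by 1.66 ± 0.39 (adjusted p = 0.00546). PAX3 and ZIC2, abundant dorsal factors, did not pass, with medians of 251 and 204 TPM for PAX3 and of 257 and 314 TPM for ZIC2.

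SPON1 (F-spondin), a secreted protein of the floor plate, was the 1 of 4 tested ventral genes that passed and the only one with a positive difference. The list had a median difference of -0.54, and its member SHH was listed at 0 in all 17 libraries. SPON1 was at 10.4 to 42.7 TPM (median 28.8) on the second day and 94.7 to 131 TPM (median 103) on the third day. It rose by 1.96 ± 0.21 (adjusted p = 5.03e-09) with no overlap.

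Among 8 tested genes of hindbrain segments, 2 passed as higher and 3 as lower, with a median difference of -0.47. EFNB2, an ephrin at segment borders, rose by 0.92 ± 0.12 (adjusted p = 1.08e-06) from 50.7 to 118 TPM on the second day to 127 to 240 TPM on the third day, with no overlap. EPHA4, an ephrin receptor of alternating segments, rose by 1.29 ± 0.30 (adjusted p = 0.00444) from 3.50 to 6.67 TPM to 6.73 to 22.3 TPM. EPHA7, another ephrin receptor, fell by 0.85 ± 0.17 (adjusted p = 0.000741) from a median of 47.9 to 28.2 TPM. The factor MAF is treated with the differences between pairs below.

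Genes of neurons gave 2 higher and 2 lower of 27 tested, with a median difference of 0.17, and no gene of 17 in the Notch pathway passed the limma test, with 3 at an unadjusted p under 0.05. RELN, a secreted protein that guides migrating neurons, was at 198 to 658 TPM (median 400) on the second day and 45.8 to 212 TPM (median 158) on the third day, a fall of 1.30 ± 0.21 on the log2 scale (adjusted p = 4.2e-05). RTN1, a neuronal reticulon, fell by 1.68 ± 0.43 (adjusted p = 0.0129), with 7.91 TPM in 42 h B1 against 85.7 TPM or more in the other second-day libraries. DPYSL3, which acts in growth cones, rose by 0.94 ± 0.18 (adjusted p = 0.000351) from a median of 83.6 to 151 TPM with no overlap. TUBB3 and MAP2, general markers of neurons, did not pass (0.17 ± 0.21 and -0.23 ± 0.11).

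Of 30 axon guidance genes 2 were higher and 4 lower, or 1 and 4 of the 27 at 1 TPM or more in at least 3 libraries of each day. ROBO2, a receptor for SLIT proteins, was at 32.9 to 77.1 TPM (median 50.7) and then 9.57 to 32.0 TPM (median 22.4), without overlap, and fell by 1.30 ± 0.13 (adjusted p = 2.16e-10). UNC5D, a netrin receptor, fell by 1.11 ± 0.20 (adjusted p = 0.000269), and NRP2, a receptor for semaphorins, by 0.78 ± 0.18 (adjusted p = 0.00503).

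The progenitor list had 1 higher and 1 lower of 19 tested and a median difference of 0.00. PTPRZ1, a phosphatase of neural stem cells, rose by 0.76 ± 0.15 (adjusted p = 0.000682) from a median of 95.4 to 168 TPM. PAX6 had medians of 183 and 149 TPM and a difference of -0.32 ± 0.09 (adjusted p = 0.0229), which missed the threshold without 36 h B1 (-0.28, adjusted p = 0.0630), 42 h B1 (-0.29, 0.0512), 48 h A2 (-0.24, 0.171) or 60 h A1 (-0.26, 0.0723). CDH2 and VIM, a cadherin and a filament protein of these cells, had differences of -0.34 ± 0.11 (adjusted p = 0.0696) and -0.02 ± 0.12 and did not pass. CDH2 did pass without 42 h B1 and 72 h A2 together (-0.31, adjusted p = 0.0253), and when 42 h B1 (-0.42, 0.0119), 48 h A1 (-0.42, 0.0362), 60 h A2 (-0.39, 0.0365), 72 h A1 (-0.41, 0.0182) or 72 h B1 (-0.39, 0.0331) alone was left out.

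Extracellular matrix genes held some of the cleanest separations. Of 22 collagen and laminin genes tested, 4 passed as higher and 1 as lower, with a median difference of 0.14. Libraries of the days did not overlap for 5 of them (0.529% of all genes tested). COL5A2, a fibrillar collagen chain, was at 13.9 to 42.6 TPM (median 28.7) on the second day and 76.8 to 238 TPM (median 175) on the third day, and rose by 2.33 ± 0.36 (adjusted p = 1.69e-05). COL2A1, the collagen of cartilage and notochord that neuroepithelium also makes, rose by 1.21 ± 0.17 (adjusted p = 1.41e-06) from 104 to 250 TPM to 290 to 483 TPM. COL5A1, the partner chain of COL5A2, rose by 0.88 ± 0.18 (adjusted p = 0.00138) from 24.7 to 46.8 TPM to 52.7 to 92.1 TPM. No library of one day overlapped the other day for any of these 3 genes.

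Markers of lateral mesoderm, fibroblasts and smooth muscle were measured beside them. Of 16 tested, 3 passed as higher and 1 as lower with a median difference of 0.61. Of the 14 at 1 TPM or more in at least 3 libraries of each day, 2 passed as higher and 1 as lower. The summed level of the list was 1263 to 2251 TPM on the second day and 1475 to 2471 TPM on the third day. ACTA2 (smooth muscle actin) was at 0 to 22.4 TPM and then 38.9 to 95.7 TPM, a rise of 2.37 ± 0.51 (adjusted p = 0.00227). POSTN (periostin) was at 1 TPM or more in fewer than 3 second-day libraries, so no test is given. Its difference was 2.31 ± 0.49, to a median of 8.22 TPM. COL1A2 was the lower member of this list and of the collagen list, at 412 to 812 TPM and then 283 to 712 TPM. Its difference was -0.36 (limma adjusted p = 0.0177), a call that was lost without 48 h A1. CDH11, a cadherin of mesenchyme that is not counted in this list, was at 0 to 11.2 TPM (median 5.29) and then 25.1 to 48.5 TPM (median 34.4). It rose by 2.67 ± 0.40 (adjusted p = 8.17e-06). HAND1, HAND2, TBX20 and DCN, which define those lineages, were listed at 0 in all 17 libraries. The part of such cells in the collagen values was not tested.

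EDNRB, the endothelin receptor of neural crest and of neural progenitors, was at 1.23 to 13.3 TPM (median 3.04) on the second day and 20.6 to 108 TPM (median 59.3) on the third day. It rose by 3.53 ± 0.39 (adjusted p = 5.93e-09), with 48 h A2 the highest second-day library and no overlap. Of the 15 neural crest genes tested, EDNRB was the only one higher and 2, TFAP2A and TFAP2B, were lower. Of the 10 at 1 TPM or more in at least 3 libraries of each day, 1 passed as higher and 0 as lower. FOXD3, an early crest factor, was listed at 0 in all 17 libraries. The summed level of the list was 94.3 to 161 TPM on the second day and 119 to 278 TPM on the third day. CORIN, the protease that activates natriuretic peptides, rose by 2.03 ± 0.40 (adjusted p = 0.00076) from a median of 7.07 to 38.5 TPM, although 42 h B1 alone was at 67.7 TPM on the second day.

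POMC, the precursor of ACTH and melanocortins, was at 50.6 to 157 TPM in the 36 h libraries and the 42 h A1 and A2 libraries, at 18.0 and 36.6 TPM at 48 h, and at 0 in 42 h B1. On the third day it was at 6.16 TPM or below. It fell by 3.90 ± 0.47 on the log2 scale (adjusted p = 8.59e-08), and by 4.51 (adjusted p = 2.37e-13) without the 2 libraries with few detected genes.

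Of 20 mitosis genes all had a positive difference, 11 passed as higher and the median was 0.50. Over all 15305 genes tested, 7204 had a positive difference and 2.57% passed as higher. ANLN, a scaffold of the cleavage furrow, was at 71.2 to 87.6 TPM (median 81.2) on the second day and 90.1 to 185 TPM (median 124) on the third day, a rise of 0.62 ± 0.14 (adjusted p = 0.00256) with no overlap. BUB1, a checkpoint kinase, rose by 0.81 ± 0.16 (adjusted p = 0.000999) and AURKB, a kinase of chromosome segregation, by 0.72 ± 0.18 (adjusted p = 0.00773). UBE2C, the ubiquitin-conjugating enzyme of mitotic exit, had a difference of 0.14 ± 0.53 and did not pass. Of 22 DNA replication genes 2 were higher, with a median of 0.08. In the fit that treats each day as 1 group, 2 mitosis genes passed.

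Of 21 genes of cholesterol and fatty acid synthesis, 7 passed as higher and none as lower, with a median of 0.33. INSIG1, the sterol sensor, rose by 0.58 ± 0.11 (adjusted p = 0.0003) from 129 to 165 TPM to 185 to 274 TPM with no overlap. VLDLR, a lipoprotein receptor counted here with the amino acid and stress response, fell by 0.70 ± 0.14 (adjusted p = 0.000707). After quantile normalization 4 of the 21 genes passed.

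**Figure D3:**
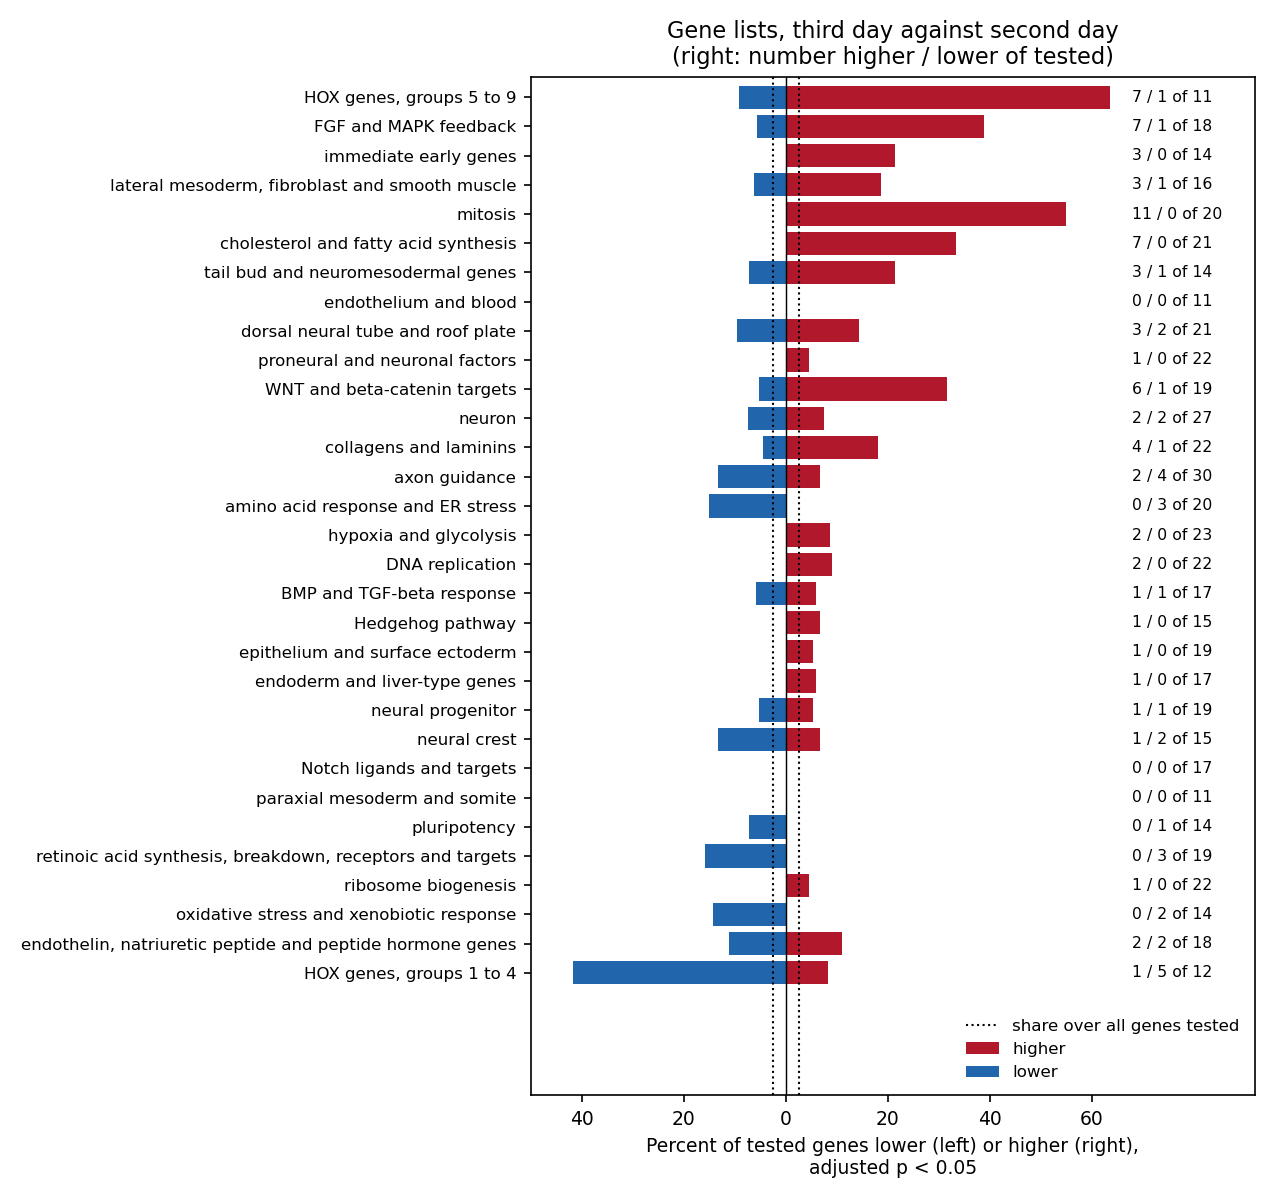
Share of the tested genes of each list that passed as higher (right, red) or lower (left, blue) on the third day, in percent, with the counts at the right, for lists with at least 11 tested genes, ordered by median difference. Dotted lines mark 2.57% and 2.55%, the shares over all genes. Mitosis reaches 11 higher of 20 and HOX groups 1 to 4 reach 5 lower of 12. The bar of HOX groups 5 to 9 (7 higher of 11) includes HOXA7, HOXC5 and HOXC6. These were at 0 in at least 7 of 8 second-day libraries. Other bars also count members at 1 TPM or more in fewer than 3 libraries of a day. They are those of tail bud, WNT, FGF, immediate early, axon guidance, lateral mesoderm, endoderm, neural crest, oxidative stress and peptide hormone genes. The lengths of all these bars are not to be read against the others.

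The genes with the largest changes included several of other kinds. LYPD1, a membrane protein that modulates acetylcholine receptors, was at 0 to 3.28 TPM (median 0.23) on the second day and 5.32 to 39.4 TPM (median 14.3) on the third day, a rise of 3.45 ± 0.44 (adjusted p = 3.03e-07). PDE4B, which degrades cyclic AMP, rose by 2.41 ± 0.37 (adjusted p = 1.12e-05) and FAM65B by 2.38 ± 0.31 (adjusted p = 4.17e-07), both without overlap, as for LYPD1. CHL1, a neural adhesion protein, rose by 2.46 ± 0.37 (adjusted p = 1.07e-05), with overlap through 72 h A2, where it was listed at 0. GAD1, the enzyme that makes GABA, was above 0 in 1 of 8 second-day and all 9 third-day libraries. On the third day it was at 0.74 to 8.95 TPM apart from 35.9 TPM in 72 h A2. Its difference was 2.43 ± 0.23, with no test given because it was near 0 on the second day.

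Falls were steepest for CALB1, the calcium-binding protein calbindin. It was at 211, 113 and 268 TPM at 36 h, 92.9, 82.8 and 19.4 TPM at 42 h and 14.8 and 1.19 TPM at 48 h, and at no more than 9.58 TPM (median 0.29) on the third day. CALB1 fell by 4.28 ± 0.29 on the log2 scale (adjusted p = 3.08e-15), and only 48 h A2 overlapped with the third day. CYP1B1, a cytochrome P450 that also oxidizes retinoids, was at 16.6 to 141 TPM (median 36.6) and then 0 to 6.11 TPM (median 1.28), a fall of 4.06 ± 0.26 (adjusted p = 5.71e-16). HMOX1, the stress-induced haem oxygenase, was listed at 0 in 7 of 9 third-day libraries. Its difference was -3.19 ± 0.33, and for that reason no test is given.

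Further genes of this group lay without overlap between days. TM4SF4, a tetraspanin-like membrane protein, fell by 3.52 ± 0.37 (adjusted p = 2.11e-09) from a median of 40.3 to 6.97 TPM. OPN5, a light-sensing opsin, fell by 3.07 ± 0.27 (adjusted p = 2.28e-11), and BHMT, a methyltransferase of homocysteine metabolism, by 2.98 ± 0.27 (adjusted p = 2.21e-11). KIF12, a kinesin, fell by 2.90 ± 0.43 (adjusted p = 6.82e-06), with 222 TPM in 42 h B1 against 30.7 TPM or less in the other second-day libraries. AMBP and TNFSF18 fell by 2.64 ± 0.41 and 2.90 ± 0.67 (adjusted p = 1.81e-05 and 0.00458), with overlap. SMN2, ARHGAP11B and KCNJ18, which have near-identical copies elsewhere in the genome, were also among the most changed genes, and their values are uncertain because reads were shared out between copies by estimation.

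The 24 h difference was also taken pair by pair. It called 235 genes between 60 and 36 h (1.54%), 524 between 66 and 42 h (3.42%) and 237 between 72 and 48 h (1.55%). Without the 2 libraries with few detected genes these counts were 399, 138 and 224, so no order of the pairs is read from them. The differences of the 3 pairs departed from one another for 16 genes (0.105%), for 35 without those libraries, and for none by the limma F-test without replicate A2, where 1908 genes had an unadjusted p under 0.05.

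MAF, a factor of hindbrain and of interneurons, was the clearest case. It was at 293, 325 and 297 TPM at 36 h, 176, 206 and 256 TPM at 42 h, and 81.2 and 128 TPM at 48 h, and then at 20.7 to 57.4 TPM (median 46.5) throughout the third day. Its differences were -3.09, -2.20 and -1.07 for the 3 pairs in order (adjusted p of the differences among pairs = 0.00365), so the second-day libraries descended with time while the third-day libraries lay close together. Its mean over pairs was -2.12 ± 0.12 (adjusted p = 2.2e-17). ROBO2 had differences of -2.39, -0.77 and -0.74 (adjusted p = 0.00447), with 9.57 to 12.5 TPM at 60 h and 19.1 to 32.0 TPM at 66 and 72 h. CALB1 had differences of -4.96, -5.76 and -2.12 (adjusted p = 0.0313).

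Other genes of this kind changed sign between pairs. TMEM65, a mitochondrial membrane protein, had differences of -1.07, -0.52 and 0.56 (adjusted p = 0.0162), and ASS1, the enzyme that makes argininosuccinate, of -1.85, 1.61 and -3.79 (adjusted p = 0.0201). The middle value of ASS1 includes 42 h B1, where it was listed at 0 against 38.1 and 26.7 TPM in the other 42 h libraries.

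The change over the third day was finally set against that over the second, from 12, 18 and 24 h to 36, 42 and 48 h (9 and 8 libraries). Both changes use the second-day libraries, so that a value shared by chance enters them with opposite signs. Over the second day 396 genes passed (2.59%), 99 higher (0.647%) and 297 lower (1.94%). The third-day change lay above the second-day change for 77 genes (0.503%) and below it for 34 (0.222%). Without replicate B1 it lay above for 26 and below for 29, so the balance between directions rests on those libraries.

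Both ways of turning occurred. HOXB5 rose over the second day, by 2.39 ± 0.51 (adjusted p = 0.00248), and fell over the third by 2.45, so its mean level went from 26.6 to 112 and back to 26.4 TPM (adjusted p of the difference = 0.00163). OLIG3 fell over the second day, by 2.57 ± 0.41 (adjusted p = 2.56e-05), and rose by 2.16 over the third (adjusted p of the difference = 8.08e-05). COL14A1, a collagen associated with fibrils, had a mean of 61.7 TPM on the first day and was at 19.3 to 29.4 TPM on the second day and 58.0 to 163 TPM on the third day. It fell by 1.23 ± 0.17 (adjusted p = 1.47e-06) and then rose by 1.91 ± 0.17 (adjusted p = 1.79e-11), with no overlap between the second and the third day (adjusted p of the difference = 1.4e-09).

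The HOX genes divided their changes differently between these days. HOXB8 rose by 3.89 ± 0.22 over the second day and by 1.46 over the third (adjusted p of the difference = 0.000229), whereas HOXB9 rose by 4.43 ± 0.26 and by 3.92, a difference that did not pass (-0.50 ± 0.46, adjusted p = 0.752). HOXC4 rose by 1.85 ± 0.31 over the second day (adjusted p = 6.13e-05) and had the value of -0.34 over the third (adjusted p of the difference = 0.0342). HOXB4, HOXB3 and HOXD4 did not pass over the second day, with changes of 0.64, 0.65 and 0.04, and fell over the third (adjusted p of the differences = 0.00897, 0.00914 and 0.0292). HOXC5, near 0 on the second day, had a second-day change of 0.05 against 3.16 over the third, and no test is given.

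Genes that did not pass over the second day and moved on the third included DUSP6 (0.08 and then 2.32, adjusted p of the difference = 0.0059), EDNRB (0.57 and then 3.53, adjusted p = 0.0183), LYPD1 (-0.09 and then 3.45, adjusted p = 0.0125) and EFNB2 (-0.21 and then 0.92, adjusted p = 0.00319). ALDH1A1 fell on both days, by 0.82 ± 0.20 over the second (adjusted p = 0.0128) and by 4.21 over the third (adjusted p of the difference = 2.04e-08), from a first-day mean of 972 TPM. SFRP5 and FZD5 also fell more over the third day, with second-day changes of -1.19 and -1.38 (adjusted p of the differences = 0.0343 and 0.0140). BHMT fell by 3.02 ± 0.27 over the second day and by 2.98 over the third, and the difference of 0.04 ± 0.46 did not pass (adjusted p = 0.993). CYP26A1 fell by 1.02 ± 0.10 over the second day (adjusted p = 1.39e-09) and by 0.65 over the third, and that difference did not pass (adjusted p = 0.427).

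**Figure D4:**
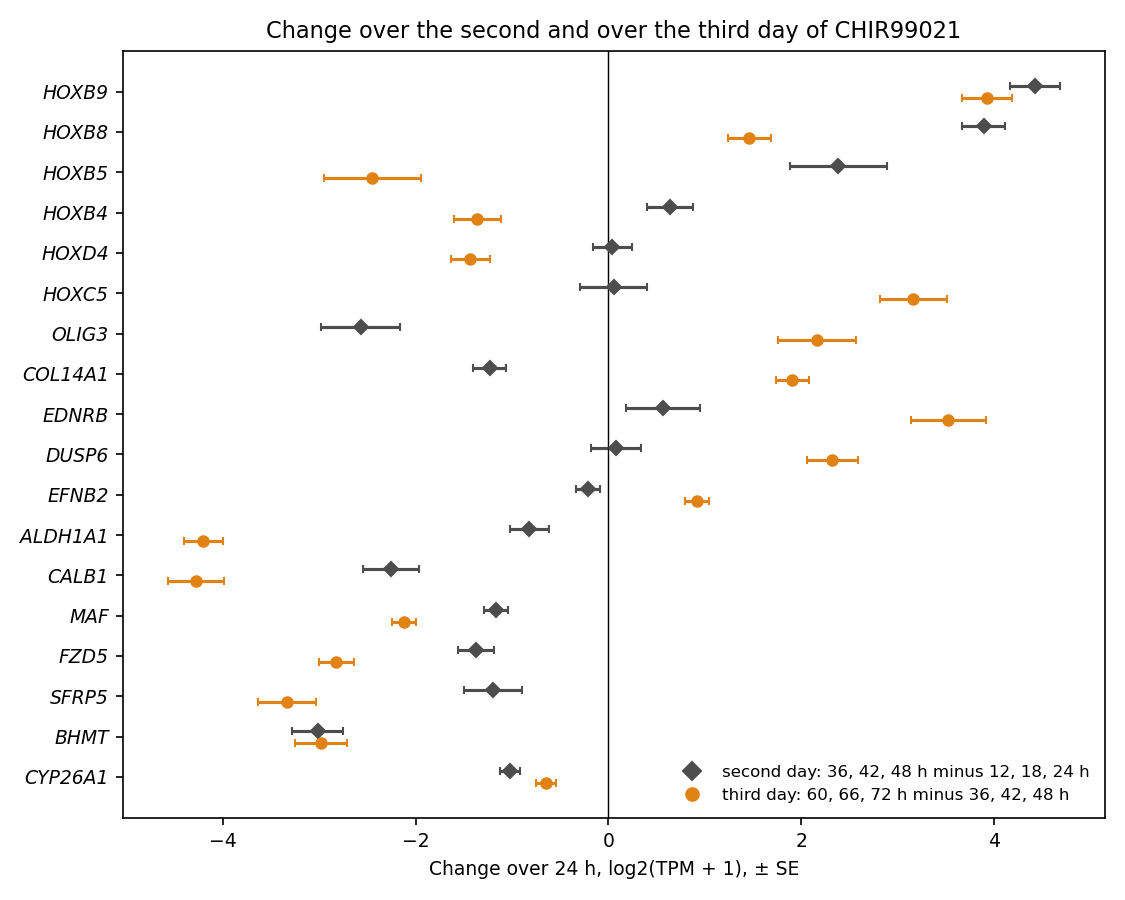
Change over the second day (diamonds) and the third day (circles) of CHIR99021 for 18 genes, on the log2(TPM + 1) scale with standard errors. HOXB5 goes from 2.39 to -2.45, OLIG3 from -2.57 to 2.16 and COL14A1 from -1.23 to 1.91, whereas BHMT goes from -3.02 to -2.98.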

How the data were processed

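RNA-seq was deposited by the authors as one table of TPM values for 19084 gene symbols in 59 libraries. Per the labels' protocols, 100 ng of total RNA was selected with oligo-dT, amplified over 18 PCR cycles and sequenced as single reads of 51 bases. The submitters' processing notes name CASAVA 1.8.2, Bowtie 0.12.8, RSEM 1.2.3 and the hg19 build, without roles. No source used here names the gene annotation. Libraries summed to 999997 to 1000001 TPM, which keeps no read number, so no count test, interval or floor is given and the precision rests on the spread between libraries.

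Genes with at least 1 TPM in at least 3 of the 59 libraries were kept (15305). log2(TPM + 1) was fitted in limma 3.58.1 (R 4.3.3) with 20 time-point means (39 residual degrees of freedom) and an intensity trend. The tests are two-sided, with Benjamini-Hochberg adjustment over all genes tested and a threshold of 0.05. The contrast gives each of the 3 time points of a day the same weight, so 48 h with 2 libraries counts as much as the others, and the differences among the 3 pairs were tested by a moderated F-test. The code was checked on simulated data. Alternatives were other pseudocounts, filters, scalings, library weights and sample sets, a replicate block, and each library left out.

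The comparison and the 37 gene lists were chosen with earlier results of these data known. Genes named were the 15 highest and 15 lowest with a mean of at least 5 TPM on 1 day, HOX genes of groups 1 to 9 with a mean of at least 2 TPM, up to 4 passing and 2 not passing members of each list, the 5 with the smallest p among pairs and the 5 in each direction with the largest difference between days. Genes beyond these (HOXA6 and HOXA7, and the list members said to be at 0) were added after their values were seen, and a few genes that the rule gives are not reported here. Figures were drawn with matplotlib 3.10.9.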

Additional observations from a re-analysis of the deposited data

Results flagged for a closer look

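In 37 of 204 sets formed by 1 gene and 1 day, the highest or lowest library lay farther from the others than Dixon's 95% critical value allows, and chance alone would give about 1 in 20, or 10.2. The 42 h B1 library accounted for 16 and the 72 h A2 library for 13, the libraries with few detected genes. Their part in each result was not tested beyond leaving them out.

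On the second day, 42 h B1 was the low library, listed at 0, for HOXA4, HOXD1, NKD1, POMC, DBX2, CDH11, ACTA2 and ASS1. It was also lowest for HOXB1 (40.3 TPM), RTN1 (7.91 TPM), DPYSL3 (23.8 TPM), TUBB3 (20.0 TPM) and BUB1 (21.6 TPM), and highest for HOXB3 (324 TPM), KIF12 (222 TPM) and TMIGD2 (90.0 TPM). On the third day, 72 h A2 was listed at 0 for HOXA2, HOXB5, HOXB6, HOXD1, RTN1, CHL1 and ZFP42. It was lowest for HOXB1 (37.6 TPM), FGFR1 (112 TPM), NRP2 (28.2 TPM), CDH2 (534 TPM) and VIM (614 TPM), and highest for HOXB3 (129 TPM). HOXB3 thus stood high, and HOXB1 and HOXD1 low, in both of these libraries.

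Other libraries stood apart for single genes. The high ones were 48 h A1 for CRABP2 (3436 TPM) and GAD1 (1.22 TPM), 48 h A2 for CDX2 (5.97 TPM), 42 h A1 for HOXC5 (1.67 TPM) and 42 h A2 for NKX1-2 (1.75 TPM). On the third day 60 h A1 was high for TNFSF18 (7.02 TPM) and low for MAF (20.7 TPM), and 66 h A2 was high for TMIGD2 (0.50 TPM).

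The change over 24 h differed among the 3 pairs of times for MAF (adjusted p = 0.00365), ROBO2 (0.00447), TMEM65 (0.0162), ASS1 (0.0201) and CALB1 (0.0313), by limma. Over all pairs ASS1 had a difference of -1.34 (adjusted p = 0.0352). That value lay between -1.90 and -1.02 with single libraries left out, and the adjusted p reached up to 0.140 and passed the threshold of 0.05 without 36 h A2, 36 h B1, 42 h A1, 42 h A2, 48 h A2, 60 h B1, 66 h A2, 66 h B1 or 72 h A2.

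The third-day change lay below the second-day change in the limma test of their difference, on the log2 scale, for HOXB5 (-4.84), ALDH1A1 (-3.38), KIF12 (-3.03), HOXB8 (-2.43), HOXC4 (-2.20), SFRP5 (-2.14), CALB1 (-2.03), HOXB4 (-1.996), HOXB3 (-1.55), HOXD4 (-1.47), FZD5 (-1.45) and MAF (-0.96). It lay above in that test for OLIG3 (4.74), LYPD1 (3.53), COL14A1 (3.14), EDNRB (2.96), DUSP6 (2.25) and EFNB2 (1.13). The values of HOXC5 (3.11) and GAD1 (2.24) were positive too. No test is given for HOXC5 and GAD1, because they were all but undetected on the second day.

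A few genes with this kind of difference are not described above. C7orf55 (-5.63) is uncertain, because it shares a read-through transcript with LUC7L2. C7orf50 (3.03), TMIGD2 (-4.17), RIBC2 (-3.57) and RSPH1 (-3.43) rested on few libraries over the third day. C7orf50 had a third-day difference of 1.47 (adjusted p = 0.0313), which missed the threshold when 36 h A2, 36 h B1, 42 h B1, 48 h A2, 60 h A2, 66 h A1 or 72 h B1 was left out, with values down to 0.90 and an adjusted p of up to 0.283. TMIGD2 had -2.19, and -1.66 without 42 h B1 or -1.90 without 48 h A1. Without 42 h B1 and 72 h A2 together its value was -1.66. TMIGD2 was at 0.50 TPM or below in every third-day library, so no test is given for it. RIBC2 had -1.61 (adjusted p = 0.0211), and -1.44 (0.0583) without 36 h B1 or -1.40 (0.110) without 48 h A2. RSPH1 did not pass over the third day (-1.34, adjusted p = 0.124).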

How the results depend on the processing

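The 785 genes that passed between days became 668 and 871 with pseudocounts of 0.1 and 5, 763 without a filter, 729 at a mean of at least 5 TPM, 882 after quantile normalization and 863 after median-ratio scaling. Library weights gave 980 and a fit without the intensity trend 724. The 17 libraries alone gave 195, and treating each day as 1 group, which adds the differences between hours to the spread, gave 181. Without the 36 and 60 h, 42 and 66 h, or 48 and 72 h time points the counts were 519, 502 and 957. Leaving out a replicate label or a single library gave 244 (without A1) to 1033 (without 42 h A1), among them 331 without A2 and 518 without 48 h A2. The ranges over replicate labels left out were 57 to 132 for 60 against 36 h (235), 61 to 669 for 66 against 42 h (524), 20 to 1241 for 72 against 48 h (237), 0 to 53 for the differences among pairs (16), 20 to 55 for the third against the second day (111) and 147 to 235 for the second day (396). Without 42 h B1 and 72 h A2 the first pair gave 399, the second 138 and the differences among pairs 35. Differences among pairs also came to 33 with a pseudocount of 5 and 46 after quantile normalization. The cause of these changes in count was not tested. After quantile normalization 57.3% of the calls between third-day and second-day change were above, against 69.4%, and 37.6% of second-day calls were higher, against 25.0%.

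With a replicate block 819 genes passed. Deviations from time-point means were compared over the 40 pairs of libraries with one label at different times of these days. Their correlations ran from -0.181 to 0.158 (median 0.004, 2 over 0.1). The means come from 2 or 3 libraries, so these values cannot show whether a label stands for a shared culture or batch.

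Of 101 genes followed, 79 passed: 35 did so under every alternative run for them, 69 with any single library left out, 76 without both libraries with few detected genes, 46 with the 17 libraries alone and 49 with each day as 1 group. None that passed changed sign. Genes lost both with the 17 libraries alone and with each day as 1 group included RTN1 (limma adjusted p = 0.452 and 0.498) and DBX2 (0.339 and 0.438). OLIG3 (0.163 and 0.400) and NRP2 (0.277 and 0.248) were lost in both fits too. CYP26A1 was lost with each day as 1 group (0.366). Without those 2 libraries the higher and lower counts became 14 and 0 for mitosis, 9 and 0 for cholesterol and fatty acid synthesis, 1 and 3 for neural progenitors, 8 and 1 for FGF feedback, 6 and 0 for WNT targets, 0 and 4 for retinoic acid genes, 3 and 1 for the dorsal neural tube, 4 and 1 for lateral mesoderm, 5 and 2 for collagens and laminins, 4 and 4 for axon guidance, 1 and 0 for hypoxia, 2 and 3 for amino acid and stress response and 0 and 0 for housekeeping genes, while HOX groups 5 to 9 had 6 and 1.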

Other observations

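Gene groups not described above were tested in the same limma fit. Immediate early genes gave 3 higher of 14 tested, or 2 of the 11 at 1 TPM or more in at least 3 libraries of each day. FOS, a factor induced within minutes by growth factors, was at 0 in 4 of 8 second-day libraries and at 1.61 to 57.8 TPM (median 5.38) on the third day, a rise of 1.74 ± 0.41 (adjusted p = 0.00567), which was 1.18 (adjusted p = 0.104) without 48 h A1. The highest library was 72 h A2. The amino acid and endoplasmic reticulum stress list gave 3 lower of 20, with a median of 0.12, opposite in sign to its calls. PSAT1, an enzyme of serine synthesis, had medians of 653 and 488 TPM and fell by 0.34 ± 0.09 (adjusted p = 0.0114), and by 0.32 (adjusted p = 0.0510) without 48 h A2.

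Of 14 pluripotency genes, 1 was lower. That gene, ZFP42, an embryonic stem cell factor, was at 7.02 to 83.4 TPM (median 12.3) and then 0 to 17.6 TPM (median 5.78), and fell by 1.39 ± 0.32 (adjusted p = 0.00386). The highest second-day and the lowest third-day value were in the libraries with few detected genes, and without both the fall was 0.71 (adjusted p = 0.0134).

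The remaining lists gave the counts below, against 2.57% higher and 2.55% lower over all genes tested. Single calls in lists of this size are not read as results about the list. BMP and TGF-beta response had 1 higher and 1 lower of 17, Hedgehog 1 higher of 15, proneural factors 1 higher of 22, hypoxia and glycolysis 2 higher of 23, ribosome biogenesis 1 higher of 22 and housekeeping genes 1 higher of 8. Forebrain and midbrain genes had 1 lower of 8, oxidative and xenobiotic response 2 lower of 14, and endothelin, natriuretic and peptide hormone genes 2 higher and 2 lower of 18. Some of these members were at 1 TPM or more in fewer than 3 libraries of a day. Without such members the lists had 0 lower of 1, 1 lower of 10, and 2 higher and 1 lower of 11. Markers of epithelium had 1 higher of 19, and those of endoderm 1 higher of 17, which was CDX2 again, at a summed level of 1.11 to 24.5 TPM on the second day and 10.4 to 30.6 TPM on the third day. None of 11 paraxial mesoderm or 11 endothelium and blood genes passed, with 2 and 1 at an unadjusted p under 0.05. Without the 42 h B1 and 72 h A2 libraries 1 paraxial mesoderm gene was higher and 1 endothelium and blood gene lower.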
